A study of Mus musculus with 24 samples.

Results

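The interferon regulatory factor (IRF) family was followed in macrophages labelled wild type or knockout for Olfml3, the gene of the secreted glycoprotein olfactomedin-like 3, at rest and after lipopolysaccharide (LPS). The 8 genes Irf1, Irf2, Irf3, Irf4, Irf5, Irf7, Irf8 and Irf9 were taken by gene symbol from both deposited tables, each of which lists 56691 genes, and all 8 passed the filter on low values in both cell types. RNA of poly(A) type was sequenced from 24 libraries, 3 in each of 8 groups. The groups were the mouse macrophage-like leukemia line RAW264.7 and mouse bone marrow-derived macrophages (BMDMs), each wild type or labelled Olfml3 knockout and each given PBS or LPS at 100 ng/mL for 4 h. The RAW264.7 knockout cells came from a single-cell clone after lentiviral CRISPR-Cas9 editing. The BMDMs were grown from marrow of C57BL/6 males, 8 weeks old, that were wild type or Olfml3 knockout. The knockout mouse line was also made with CRISPR-Cas9. The genotype tag contradicted the sample title in 12 of 24 samples, and the groups used here follow the titles.

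IRFs are transcription factors that share an N-terminal DNA-binding domain and read GAAA repeats in interferon-responsive promoters. IRF3 is present in resting cells and is activated by phosphorylation downstream of TLR4, IRF9 works with STAT2 in the complex ISGF3 that transmits type I interferon signals, and ISGF3 in turn induces IRF7, the main amplifier of type I interferon genes. IRF1 is induced by interferon gamma and NF-kappaB and activates inflammatory genes, IRF2 competes for its sites, IRF5 acts downstream of MyD88, and IRF8 and its closest relative IRF4 work with PU.1 in myeloid and lymphoid cells.

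The knockout label was checked on Olfml3 first. In BMDMs Olfml3 was 0.60 ± 0.06 FPKM (SD, n = 3) in wild type with PBS and 0.017 ± 0.012 FPKM in knockout with PBS, and 0.25 ± 0.01 FPKM against 0.0033 ± 0.0058 FPKM with LPS. In RAW264.7 the RNA went against the label: Olfml3 was 0.16 ± 0.02 FPKM in wild type and 0.95 ± 0.27 FPKM in the libraries labelled knockout with PBS, and 0.18 ± 0.09 FPKM against 18.7 ± 0.3 FPKM with LPS. This RNA level does not show whether the protein was lost. All 8 LPS check genes, among them Il1b, Il6 and Acod1, were called higher with LPS in both genotypes of both cell types. Library totals were 11638273 to 16478616 counts in RAW264.7 and 17121240 to 22873094 in BMDMs. Replicate 1 of the RAW264.7 group labelled knockout with PBS stood apart, with a chi-square per degree of freedom of 88.85 and 90.04 against the other replicates of its group, where other RAW264.7 pairs gave at most 2.828. Results for members are given without it where that moved a value by over 1.5 times or bore on a call. Some small values of Irf2, Irf3 and Irf8 are instead given near the end, as ranges over left-out libraries. In BMDMs the wild-type pairs with LPS gave 5.136 to 11.42, where other BMDM pairs gave at most 2.822. The summed FPKM of 7 macrophage markers was 2914 to 2945 in RAW264.7 wild type and 1054 to 1286 in the libraries labelled knockout with PBS, and 2729 to 2870 against 829 to 862 with LPS, Lyz2 holding most of the difference. With PBS the means of Lyz2, Cd68, Adgre1 and Itgam were lower under the knockout label. Those of Csf1r (263 against 340 FPKM) and Fcgr1 (18.3 against 22.1 FPKM) were higher under it, and Mertk was 0 in every RAW264.7 group. In BMDMs the same sum was 11847 to 17664 in every library. Marker sums of T and NK cells (10 genes), B cells (6), conventional dendritic cells (6), neutrophils (8) and fibroblasts (6) were at most 1.18 FPKM in any RAW264.7 library, and at most 8.61 FPKM in BMDMs, where Cd4, Cd22 and S100a8 led. The sum of 6 plasmacytoid dendritic cell markers was 7.26 to 7.92 FPKM in RAW264.7 wild type with PBS and 17.9 to 21.9 FPKM under the knockout label, with LPS 4.96 to 5.89 against 8.50 to 8.83 FPKM, Tcf4 and Siglech leading. Of the other markers Cox6a2 was 1.43 against 1.60 FPKM with PBS. Ccr9 and Klk1 were at most 0.173 FPKM on average in any RAW264.7 group, and Ly6d was 0. In BMDMs the sum of these 6 markers was 5.04 to 14.6 FPKM with Tcf4 leading. Their part in the IRF results was not tested, and in bulk RNA fewer cells of a kind and less RNA per cell cannot be told apart.

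The promoters of the members that the results turn on are printed here so that the interferon and STAT motifs can be seen beside the values. Each sequence is the 250 bases before a RefSeq transcription start on GRCm38.p6, read 5′ to 3′ along the gene, in lower case, with matches in capitals. The motifs searched on both strands were the interferon-stimulated response element (ISRE), GAAA and GAAA with any pair of bases between, the gamma-activated site (GAS) known from interferon gamma target genes, TTC and GAA with any 3 bases between, and an NF-kappaB-like motif, GGGA and TCC with any 3 bases between. No match of one motif overlapped another.
Irf1 (chr11:53769764-53770013, plus strand): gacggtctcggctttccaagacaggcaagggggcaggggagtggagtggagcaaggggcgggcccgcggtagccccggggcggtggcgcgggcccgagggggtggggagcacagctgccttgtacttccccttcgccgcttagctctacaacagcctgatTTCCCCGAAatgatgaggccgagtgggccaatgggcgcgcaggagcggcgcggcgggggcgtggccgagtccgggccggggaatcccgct
Irf2 (chr8:46739495-46739744, plus strand): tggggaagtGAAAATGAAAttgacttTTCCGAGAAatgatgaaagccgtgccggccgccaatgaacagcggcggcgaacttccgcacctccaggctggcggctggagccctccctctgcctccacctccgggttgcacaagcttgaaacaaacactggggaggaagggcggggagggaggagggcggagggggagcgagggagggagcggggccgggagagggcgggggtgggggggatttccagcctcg
Irf7 (chr7:141266425-141266674, minus strand): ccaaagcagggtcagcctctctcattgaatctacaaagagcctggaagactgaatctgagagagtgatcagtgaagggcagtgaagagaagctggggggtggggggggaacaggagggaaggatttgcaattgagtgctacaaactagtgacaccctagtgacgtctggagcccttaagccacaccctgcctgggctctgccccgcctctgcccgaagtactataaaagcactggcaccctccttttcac
Irf8 (chr8:120736108-120736357, plus strand): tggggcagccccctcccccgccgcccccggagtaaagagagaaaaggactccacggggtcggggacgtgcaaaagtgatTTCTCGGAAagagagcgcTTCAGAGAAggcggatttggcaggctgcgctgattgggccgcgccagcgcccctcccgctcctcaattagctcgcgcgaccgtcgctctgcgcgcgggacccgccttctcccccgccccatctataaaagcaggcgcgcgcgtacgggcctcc
Irf9 (chr14:55603735-55603984, plus strand): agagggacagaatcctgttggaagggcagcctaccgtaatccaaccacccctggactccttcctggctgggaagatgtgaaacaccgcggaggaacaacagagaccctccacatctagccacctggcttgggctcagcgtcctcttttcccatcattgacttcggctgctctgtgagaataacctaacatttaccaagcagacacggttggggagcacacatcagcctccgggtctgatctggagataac
The capitals mark a GAS in Irf1 that begins at position -90 from the start, an ISRE at -241 and a GAS at -224 in Irf2, and a pair of GAS matches in Irf8 at -171 and -153. No match to these letters stood in the windows of Irf7 and Irf9, nor in those of Irf3, Irf4 and Irf5, which says only that the letters are not in these windows. Over 11 windows of the 8 members, 3 held a GAS, 1 an ISRE and 0 the NF-kappaB-like motif, beside 8.3%, 3.44% and 4.59% of 32851 RefSeq promoter windows of the same build, each of which also holds 50 bases after the start. The 0 for the NF-kappaB-like motif holds only for the letters searched, and other spellings of an NF-kappaB site were not searched. The printed windows of Irf1 and Irf2 hold ggggaatccc and ggggatttcc, similar spellings that the searched letters miss. The 0 therefore does not show that these windows lack such a site. A match is a description of letters and not a bound site.

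The level of each member was set against the others first, on the FPKM scale, which is per length and so allows genes of a table to be compared. With PBS, Irf5 led in every group. It held 54.7% of the summed FPKM of the 8 genes in RAW264.7 wild type and 41.4% in BMDM wild type, where Irf8 (19.2%) and Irf7 (13.8%) followed. With LPS the order turned. Irf7 came first in RAW264.7, with 37.1% in wild type and 27.8% in the libraries labelled knockout. In BMDMs Irf1 came first with 32.5% in wild type and 39.4% in knockout, ahead of Irf7 with 25.6% and 27.7%. The share of Irf8 was 22.8% in BMDM wild type with LPS and 8.50% in BMDM knockout with LPS. Irf4 was last in 7 of the 8 groups, and Irf7 was last in RAW264.7 labelled knockout with PBS. Neighbours in the order had overlapping libraries for Irf2, Irf7 and Irf9 in RAW264.7 wild type with PBS, for Irf3 and Irf8 in RAW264.7 labelled knockout with PBS, for Irf1 with Irf9 and Irf2 with Irf3 in BMDM wild type with PBS, for Irf3 with Irf2 in BMDM knockout with PBS, and for Irf2 with Irf9 in BMDM knockout with LPS.

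**Figure D1:**
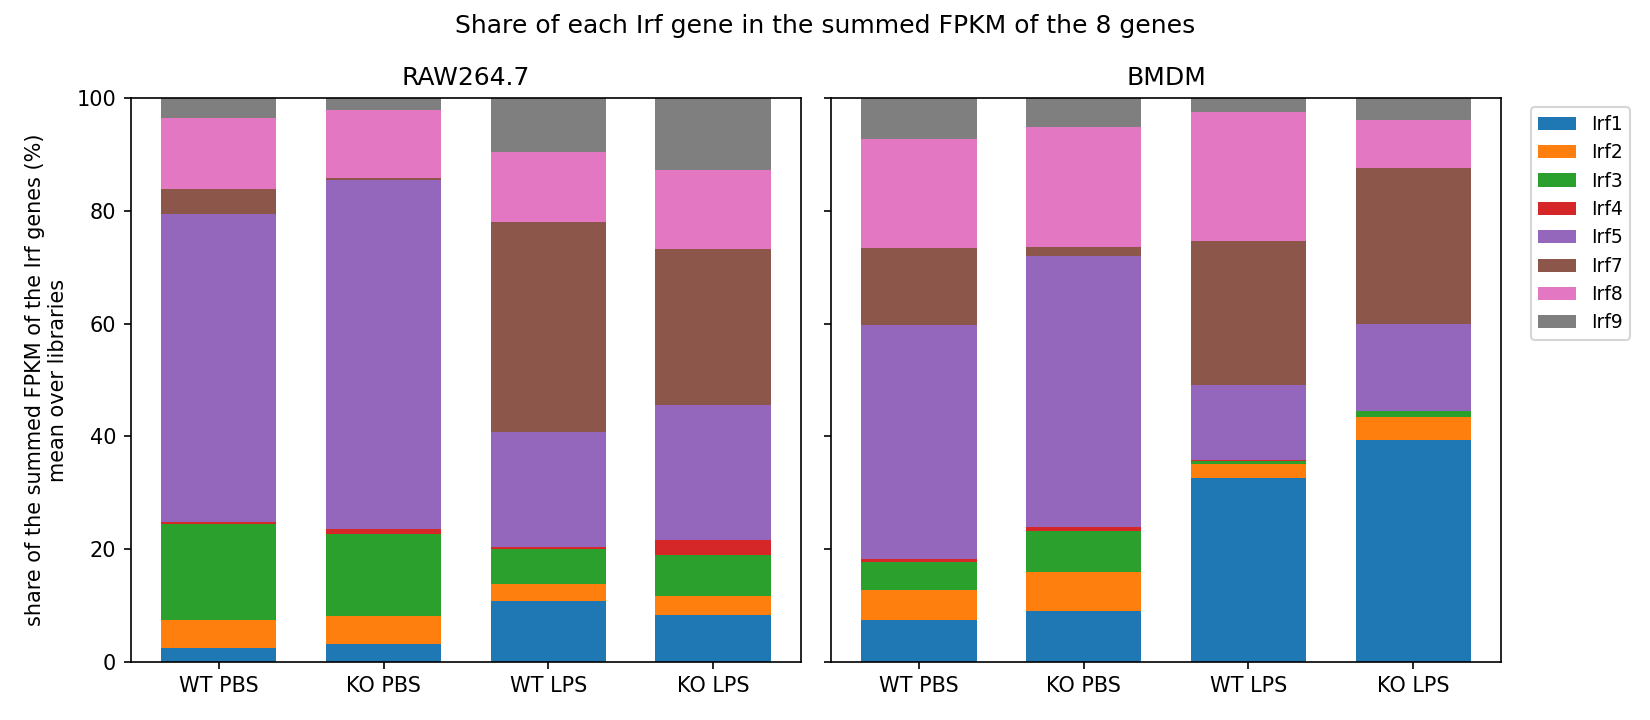
Share of each Irf gene in the summed FPKM of the 8 genes (percent, vertical axis, from 0), as stacked bars of the mean over 3 libraries, for the 4 groups of each cell type; KO is the Olfml3 knockout label. Irf5 takes 54.7% in RAW264.7 wild type with PBS and 20.4% with LPS, and Irf8 takes 22.8% in BMDM wild type with LPS and 8.50% in knockout with LPS.

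Counts of changed members were then read against all genes. A gene was called when the limma adjusted p was under 0.05 and the fold change at least 1.5. Between the knockout label and wild type with PBS, 3 of 8 members were called in RAW264.7, where 8.55% of all genes tested were called, and 2 of 8 in BMDMs, where 1.82% were. With LPS, 3 of 8 were called in RAW264.7 (17.3% of all genes) and 1 of 8 in BMDMs (4.76% of all genes). LPS against PBS gave 5 of 8 in RAW264.7 wild type (18.3%), 6 of 8 in RAW264.7 labelled knockout (22.1%), 7 of 8 in BMDM wild type (40.4%) and 6 of 8 in BMDM knockout (38.9%). The LPS response differed between genotypes for 3 of 8 members in RAW264.7 (1.95% of all genes) and 3 of 8 in BMDMs (2.93%). The calls over all genes split by direction. Under the knockout label 4.79% were called higher and 3.77% lower with PBS and 9.73% higher and 7.60% lower with LPS in RAW264.7, and 0.901% higher and 0.916% lower with PBS and 3.23% higher and 1.53% lower with LPS in BMDMs. With LPS 5.80% rose and 12.5% fell in RAW264.7 wild type, 7.45% and 14.6% under the RAW264.7 knockout label, 7.94% and 32.5% in BMDM wild type and 8.02% and 30.9% in BMDM knockout. The response was larger under the knockout label for 0.905% and smaller for 1.04% of genes in RAW264.7, and for 1.91% and 1.02% in BMDMs. By libraries, the knockout label and wild type did not overlap in RAW264.7 for 5 members given PBS and 7 given LPS, beside 24.1% and 40.2% of all genes, and for 4 and 8 in BMDMs, beside 20.5% and 26.7%. Between LPS and PBS they did not overlap for 8 members in RAW264.7 wild type (38.8% of all genes), 7 in RAW264.7 labelled knockout (35.5%), and 8 in each BMDM genotype (52.2% in wild type, 52.1% in knockout). In BMDMs many genes had lower FPKM after LPS: over 10555 genes with a mean of at least 1 FPKM the median log2 change was -0.73 in wild type and -0.62 in knockout, and in RAW264.7 it was -0.21 and -0.23 over 11336 genes. LPS changes are therefore also given after median-ratio scaling where that moved a call.

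**Figure D2:**
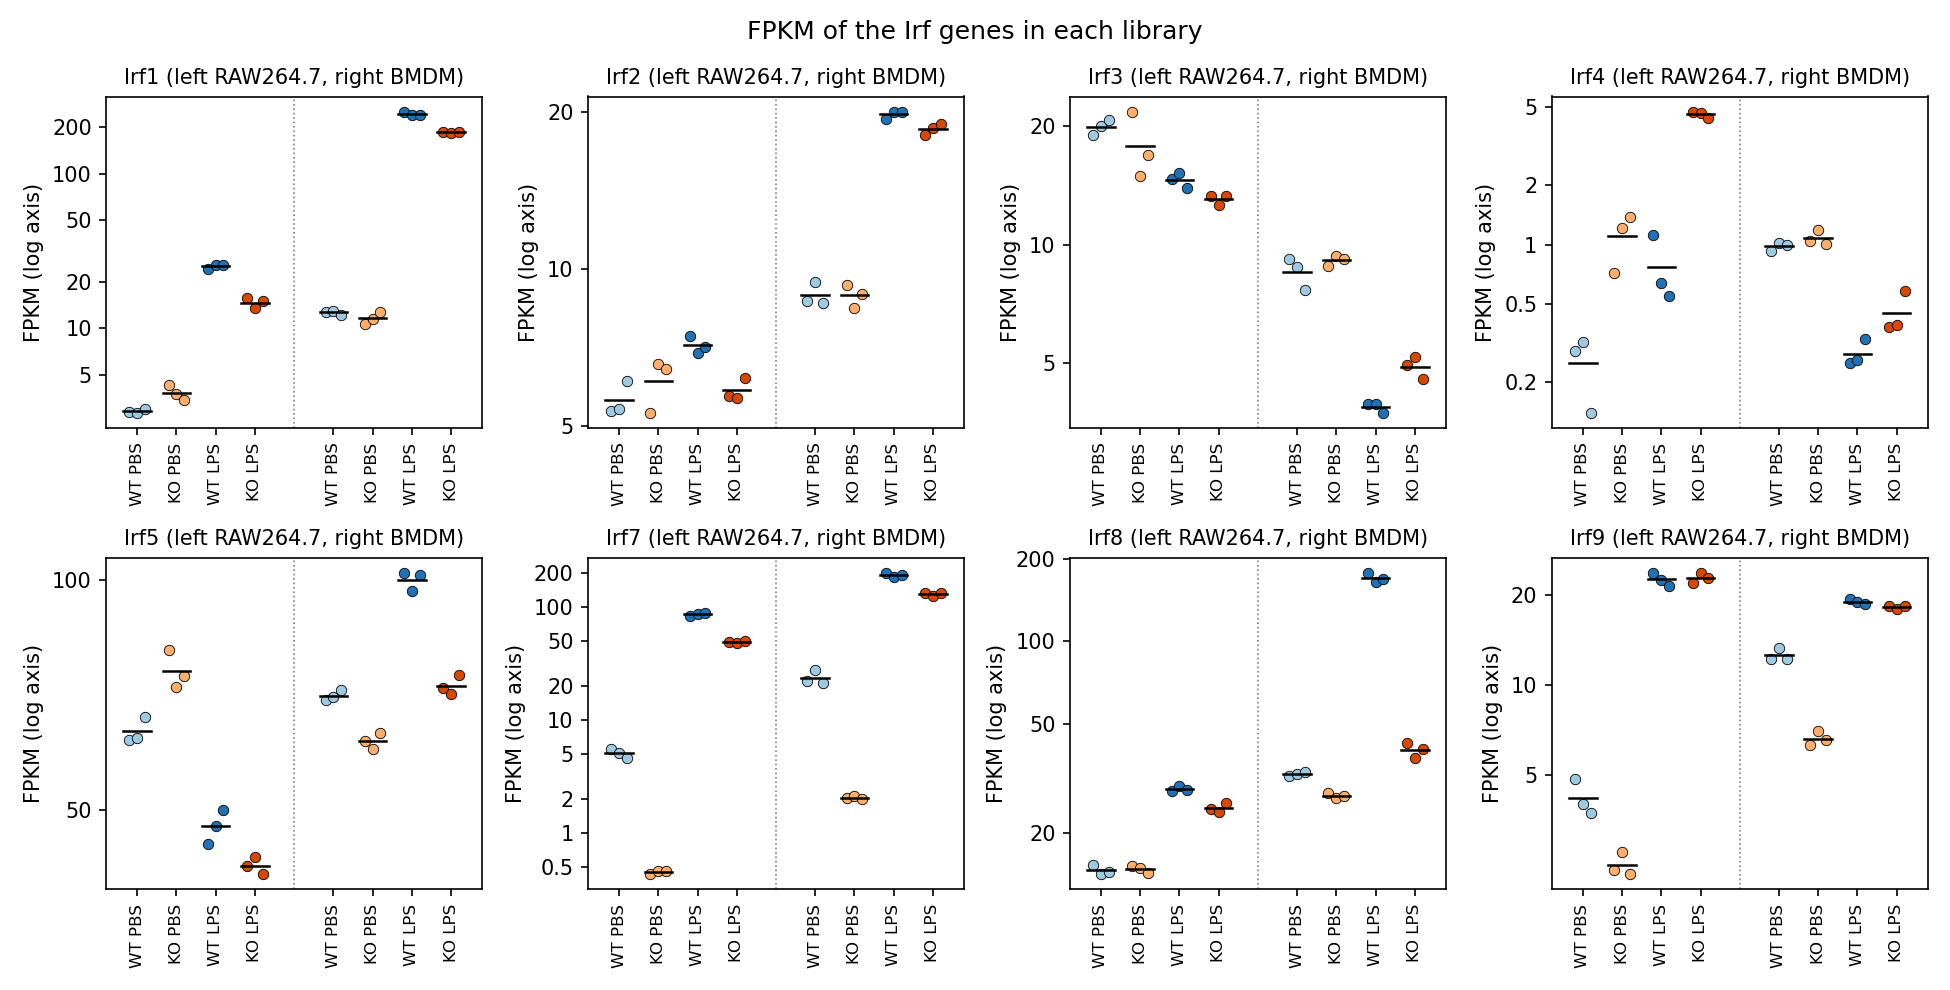
FPKM of each Irf gene (log axis) in every library, with 8 panels of 4 RAW264.7 groups on the left and 4 BMDM groups on the right; points are libraries, bars their means, KO the Olfml3 knockout label. Irf7 lies between 0.43 and 0.46 FPKM in RAW264.7 labelled knockout with PBS, below the 4.57 to 5.51 FPKM of wild type, and Irf8 between 37.5 and 42.5 FPKM in BMDM knockout with LPS, below the 165 to 178 FPKM of wild type.

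Irf7 was the member with the lowest RNA relative to wild type in resting cells of both kinds. In BMDMs with PBS it measured 21.9, 27.5 and 21.2 FPKM in wild type and 2.05, 2.13 and 1.97 FPKM in knockout. The groups were far apart and the knockout libraries close together. The log2 difference, knockout minus wild type, was -3.45 ± 0.09 (SE, adjusted p = 6.85e-08, limma). In RAW264.7 with PBS the 3 libraries gave 5.51, 5.12 and 4.57 FPKM in wild type and 0.43, 0.46 and 0.46 FPKM under the knockout label, from 25 to 28 counts each. Again no library overlapped, and the log2 difference was -3.23 ± 0.08 (adjusted p = 2.27e-08, limma), or -3.20 without replicate 1 of the group that stood apart. At these low counts its size depended on the pseudocount, being -2.06 and still called with a pseudocount of 1.

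LPS raised Irf7 in every group. BMDM wild type reached 201, 185 and 190 FPKM and knockout 134, 126 and 133 FPKM, so that Irf7 rose by 3.03 ± 0.09 on the log2 scale in wild type and by 5.93 ± 0.09 in knockout (adjusted p = 1.7e-09 and 3.22e-11, limma). RAW264.7 wild type reached 83.6, 87.4 and 88.8 FPKM and the libraries labelled knockout 49.1, 48.1 and 50.4 FPKM, rises of 4.07 and 6.49. Stimulated BMDM knockout libraries and stimulated RAW264.7 libraries labelled knockout thus stayed below their wild type, with a narrower gap than at rest. That gap was called in RAW264.7, at -0.81 ± 0.08 (adjusted p = 0.000152, limma), but fell under the fold threshold at -0.58 after TPM scaling. In BMDMs it passed the adjusted p (0.0026, limma) but not the fold threshold, at -0.55 ± 0.09, and passed both at -0.71 after median-ratio scaling. The LPS response itself differed between genotypes, by 2.90 ± 0.13 in BMDMs and 2.41 ± 0.12 in RAW264.7 (adjusted p = 5.91e-06 and 1.24e-05, limma). These differences equal the LPS gap minus the PBS gap, and most of each came from PBS. With a pseudocount of 1 the RAW264.7 difference in response was 1.26, still called.

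Irf9, the DNA-binding subunit of ISGF3, was called lower at rest as well, in BMDM knockout and under the RAW264.7 knockout label. BMDMs with PBS held 12.2, 13.3 and 12.2 FPKM in wild type and 6.32, 7.0 and 6.55 FPKM in knockout, without overlap. The log2 difference was -0.91 ± 0.05 (adjusted p = 8.95e-06, limma). In RAW264.7 the values were 4.84, 4.00 and 3.73 FPKM against 2.41, 2.78 and 2.34 FPKM, a difference of -0.71 ± 0.11 (adjusted p = 0.00303, limma) that was -0.69 without the library that stood apart and lost its call at -0.53 after TPM scaling and at -0.56 with a pseudocount of 1. With LPS the genotypes came together: Irf9 was 18.6 to 19.3 FPKM in BMDM wild type and 18.0 to 18.4 FPKM in knockout, and 21.4 to 23.6 FPKM in RAW264.7 wild type and 21.8 to 23.6 FPKM under the knockout label. The 95% interval of the difference with LPS was -0.18 to 0.07 in BMDMs and -0.23 to 0.26 in RAW264.7. The rise with LPS was 0.59 in BMDM wild type, at the edge of the fold threshold, 1.45 in BMDM knockout, 2.40 in RAW264.7 wild type and 3.13 under the RAW264.7 knockout label. The response differed between genotypes by 0.86 ± 0.08 in BMDMs (adjusted p = 0.000261, limma). In RAW264.7 the difference was 0.73 ± 0.15 (adjusted p = 0.0485, limma), and that call was lost with a pseudocount of 0.01 or 1, after TPM scaling, with the replicate number as a block (adjusted p = 0.0884) and when any 1 of 9 libraries was left out, the adjusted p then being 0.0802 to 0.121. Irf9 shares 123 bases with Rnf31 on the same strand, and reads there cannot be assigned to either gene alone.

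Irf3, which is regulated mainly by phosphorylation of its protein, was called in no comparison of genotypes. With PBS it was 19.0 to 20.7 FPKM in RAW264.7 wild type and 14.9 to 21.8 FPKM under the knockout label, and 7.68 to 9.19 against 8.84 to 9.37 FPKM in BMDMs, with overlap in both. The RAW264.7 overlap came from the library that stood apart: the difference was -0.17 (adjusted p = 0.397, limma) with it and -0.33 (adjusted p = 0.00921) without it, under the fold threshold either way. With LPS the BMDM values were 3.93, 3.94 and 3.74 FPKM in wild type and 4.96, 5.18 and 4.56 FPKM in knockout. Each knockout library was above each wild-type library, and the difference of 0.33 ± 0.07 passed the adjusted p (0.0123, limma) without reaching 1.5-fold. LPS went with lower Irf3 in BMDMs, by -1.12 in wild type and -0.89 in knockout on the FPKM scale, both called. Relative to the shift of all genes these changes were -0.33 and -0.20 after median-ratio scaling, and neither was called. In RAW264.7 the change was -0.44 in wild type and -0.43 under the knockout label, both under the fold threshold, the latter -0.28 without the library that stood apart. Irf3 shares 1065 bases with Bcl2l12 on the opposite strand, Irf7 45 bases with Phrf1 and Irf1 3144 bases with the low Gm17334, and nothing read here says whether reads were counted by strand.

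The ratio of Irf7 to Irf3 within a library depends on how libraries are scaled only through the 0.1 added to each FPKM. That addition matters where a gene is low, as Irf7 was in RAW264.7 labelled knockout with PBS. On the log2 scale the ratio was 1.45 ± 0.20 (SD, n = 3) in BMDM wild type with PBS and -2.10 ± 0.06 in knockout with PBS, and 5.60 ± 0.07 against 4.71 ± 0.13 with LPS. In RAW264.7 it was -1.96 ± 0.20 against -5.01 ± 0.32 with PBS and 2.56 ± 0.09 against 1.90 ± 0.02 with LPS. In all 4 comparisons the groups did not overlap, and the two-sided exact permutation p was 0.1, the smallest that 3 against 3 libraries allow.

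Irf8 was the member called lower in BMDM knockout with LPS by the main test. This factor directs the monocyte and dendritic cell lineages and joins IRF1 on inflammatory promoters. With LPS it measured 178, 165 and 169 FPKM in wild type and 42.5, 37.5 and 40.4 FPKM in knockout. No library came near the other group. The log2 difference was -2.09 ± 0.06 (adjusted p = 2.26e-07, limma), a 4.26-fold lower mean in knockout, and -2.13 to -2.04 when any 1 library was left out, those of the more variable wild-type group included. With PBS the gap was small, 32.1 to 33.2 FPKM against 26.8 to 27.8 FPKM, with a log2 difference of -0.26 ± 0.06 that passed the adjusted p (0.0291, limma) but not the fold threshold. Irf8 rose with LPS by 2.38 ± 0.06 in wild type (adjusted p = 3.23e-10, limma). In knockout the rise was 0.55 ± 0.06, under the fold threshold, and 1.24 after median-ratio scaling, which called it. The response differed by -1.83 ± 0.08 (adjusted p = 4.37e-06, limma), and this call held under every alternative run. In RAW264.7 Irf8 was 14.1 to 15.2 FPKM in wild type with PBS and 14.2 to 15.1 FPKM under the knockout label. It rose by 0.98 and 0.74 with LPS, to 28.4 to 29.7 FPKM and 23.8 to 25.6 FPKM. The LPS difference of -0.23 ± 0.07 did not overlap by library but was under 1.5-fold, and the interaction of -0.25 had an adjusted p of 0.381 (limma). Whether the BMDM and RAW264.7 responses differ was not tested, because the tables were normalized separately.

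Irf4, the relative of Irf8 that is linked to alternatively activated macrophages, was the least abundant member and moved in opposite directions with LPS. In BMDMs it was 0.93, 1.02 and 0.99 FPKM in wild type with PBS and 0.25, 0.26 and 0.33 FPKM with LPS, from 28 to 36 counts. In knockout it was 1.04, 1.18 and 1.01 FPKM with PBS and 0.38, 0.39 and 0.58 FPKM with LPS. Both genotypes were lower with LPS, by -1.51 ± 0.14 and -1.11 ± 0.14 (adjusted p = 4.95e-06 and 5.57e-05, limma), the latter -0.51 and uncalled after median-ratio scaling. With LPS BMDM knockout lay above wild type without overlap, by 0.52 ± 0.14 (adjusted p = 0.0265, limma), under the fold threshold. That difference was 0.18 to 0.65 over the other settings, and was called with a pseudocount of 0.01 and with some single libraries left out. In RAW264.7 wild type Irf4 measured 0.29, 0.32 and 0.14 FPKM with PBS, from 9 to 25 counts, and 1.12, 0.64 and 0.55 FPKM with LPS. Under the knockout label it measured 0.72, 1.22 and 1.38 FPKM with PBS and 4.73, 4.66 and 4.40 FPKM with LPS. Irf4 was thus higher under the knockout label in both conditions, by 1.78 ± 0.30 with PBS (adjusted p = 0.00552, limma) and 2.49 ± 0.30 with LPS (adjusted p = 0.000524), without overlap of libraries. Without the library that stood apart the PBS difference was 2.04, and with a pseudocount of 1 it was 0.74 and still called. Irf4 rose with LPS by 1.30 and 2.00, and the rise in wild type was 0.49 and uncalled with a pseudocount of 1. The interaction of 0.70 ± 0.43 was not called (adjusted p = 0.696, limma) and was 0.45 without the library that stood apart (adjusted p = 0.659), while with a pseudocount of 1 it was 0.93 and called.

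The within-library log2 ratio of Irf8 to Irf4 was 8.82 ± 0.19 (SD, n = 3) in BMDM wild type with LPS and 6.21 ± 0.29 in knockout with LPS. In RAW264.7 with LPS it was 5.11 ± 0.50 in wild type and 2.40 ± 0.10 under the knockout label, and with PBS 5.43 ± 0.44 and 3.66 ± 0.49. The groups did not overlap in these comparisons (two-sided exact permutation p = 0.1, the smallest possible). As 0.1 was added to each FPKM, the low Irf4 values make these ratios smaller than those of plain FPKM. The ratio was therefore lower under the knockout label in both cell types, with Irf8 making up most of the difference in BMDMs and Irf4 in RAW264.7.

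**Figure D3:**
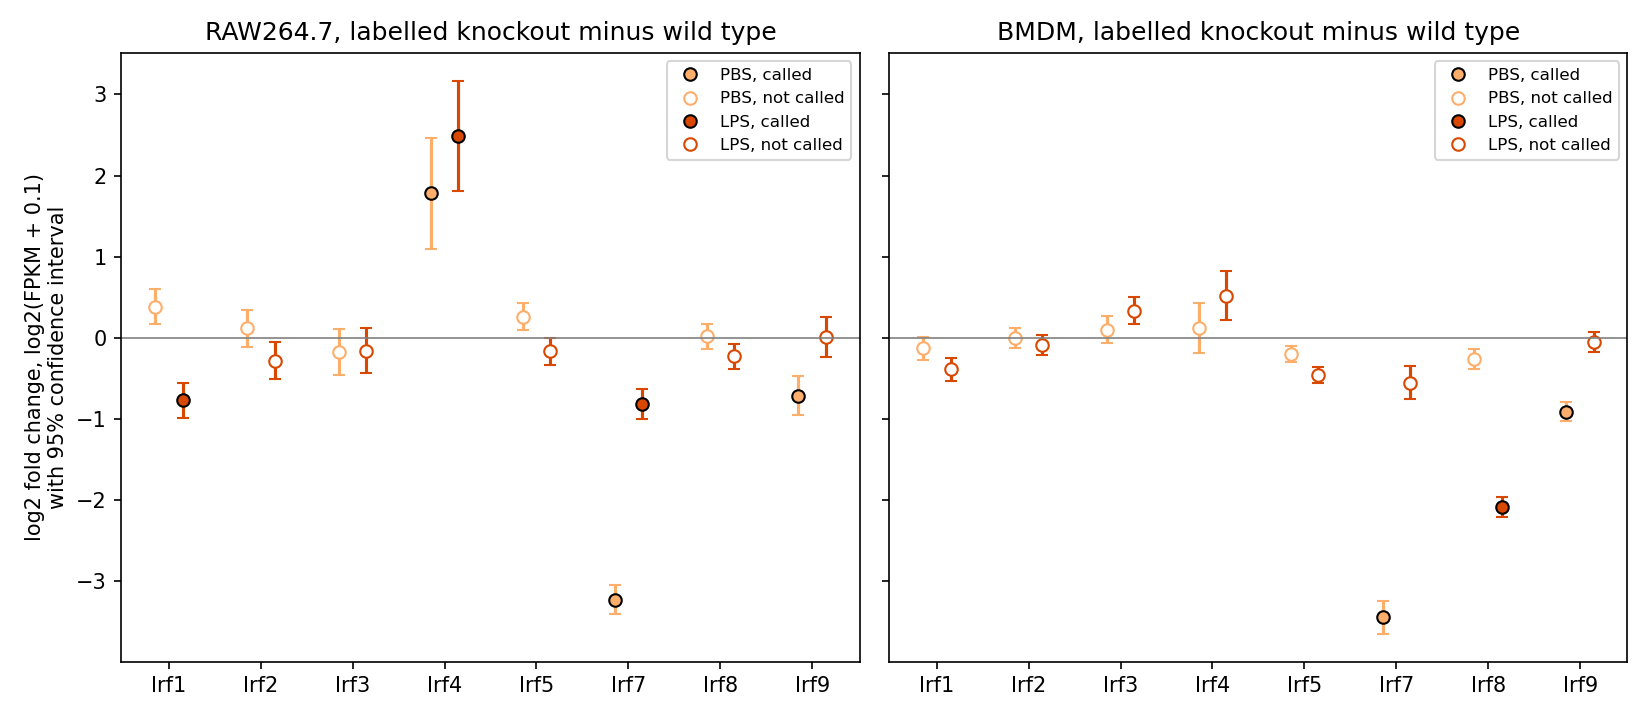
Log2 fold change of each Irf gene, labelled Olfml3 knockout minus wild type, on the log2(FPKM + 0.1) scale with 95% confidence intervals from limma, in the PBS and LPS arms of RAW264.7 and BMDMs; filled points were called. Irf7 with PBS lies at -3.23 in RAW264.7 and -3.45 in BMDMs, Irf8 with LPS at -2.09 in BMDMs and -0.23 in RAW264.7, and Irf4 with LPS at 2.49 in RAW264.7.

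Irf1, an activator of interferon gamma target genes, and Irf2, which occupies the same sites, were compared next. BMDMs with LPS held the highest Irf1 levels of the family, 252, 238 and 241 FPKM in wild type and 187, 184 and 187 FPKM in knockout. With PBS the values were 12.2 to 13.01 FPKM and 10.7 to 12.7 FPKM, overlapping. Irf1 rose by 4.25 ± 0.06 in wild type and 3.99 ± 0.06 in knockout (adjusted p = 2.54e-11 and 3.58e-11, limma). The LPS difference of -0.39 ± 0.06 between genotypes passed the adjusted p (0.00221, limma) but not the fold threshold. In RAW264.7 the rise was smaller, from 2.90, 2.85 and 3.00 FPKM to 24.4, 25.6 and 25.6 FPKM in wild type and from 4.31, 3.78 and 3.45 FPKM to 15.7, 13.5 and 15.0 FPKM under the knockout label. Without overlap, the libraries labelled knockout were above wild type with PBS, by 0.38 ± 0.09 and under the fold threshold, and below it with LPS. The difference with LPS was -0.77 ± 0.09 (adjusted p = 0.000539, limma), which fell to -0.54, under the fold threshold, after TPM scaling. The response to LPS was 3.07 in wild type and 1.91 under the knockout label, a difference of -1.15 ± 0.13 (adjusted p = 0.00214, limma), and -1.07 without the library that stood apart.

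Irf2 was called in no comparison of genotypes. It was 8.62 to 9.45 FPKM in BMDM wild type and 8.44 to 9.32 FPKM in knockout with PBS, with a 95% interval of the log2 difference of -0.12 to 0.12. LPS raised it in both BMDM genotypes, to 19.41, 20.06 and 20.01 FPKM and to 18.1, 18.7 and 19.0 FPKM, or by 1.14 and 1.05 on the log2 scale (adjusted p = 4.25e-08 and 9.27e-08, limma). In RAW264.7 it stayed between 5.31 and 7.45 FPKM in all 12 libraries and was called in no comparison of the main test. Its RAW264.7 genotype difference with PBS was 0.12, and 0.22 without the library that stood apart. With LPS the knockout label lay below wild type without overlap, by -0.28 in RAW264.7 (adjusted p = 0.0686, limma) and -0.09 in BMDMs. The RAW264.7 difference in response was -0.40 (adjusted p = 0.307, limma), and -0.50 (adjusted p = 0.0296) without the library that stood apart. The log2 ratio of Irf1 to Irf2 rose with LPS from 0.51 ± 0.05 to 3.61 ± 0.07 in BMDM wild type and from 0.38 ± 0.15 to 3.32 ± 0.04 in knockout (SD, n = 3). In RAW264.7 it rose from -0.92 ± 0.07 to 1.80 ± 0.09 and, under the knockout label, from -0.66 ± 0.32 to 1.31 ± 0.11. With LPS the ratio was lower under the knockout label in both cell types, by -0.30 in BMDMs and -0.49 in RAW264.7, without overlap (two-sided exact permutation p = 0.1, the smallest possible).

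Irf5, which drives inflammatory cytokine genes downstream of Toll-like receptors, was abundant in all 24 libraries. BMDMs with PBS held 69.6, 70.2 and 71.9 FPKM in wild type and 61.5, 60.1 and 63.1 FPKM in knockout, and with LPS 102, 96.6 and 101 FPKM against 72.1, 71.0 and 75.0 FPKM. The groups did not overlap in either condition. The difference was -0.20 ± 0.04 with PBS and -0.46 ± 0.04 with LPS (adjusted p = 0.0414 and 0.00015, limma), both under the fold threshold, and -0.62 with LPS after median-ratio scaling, which called it. The rise of 0.50 in BMDM wild type and 0.24 in knockout became 1.30 and 0.93 after that scaling. In RAW264.7 Irf5 went the other way with LPS, from 61.8, 62.1 and 66.1 FPKM to 45.15, 47.66 and 50.01 FPKM in wild type and from 80.8, 72.3 and 74.8 FPKM to 42.3, 43.4 and 41.3 FPKM under the knockout label. The change was -0.41 ± 0.08 and -0.84 ± 0.08 (adjusted p = 0.00261 and 1.78e-05, limma), and only the latter was called, at -0.57 and uncalled after median-ratio scaling. Irf5 shares 1045 bases with Tnpo3 on the opposite strand.

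**Figure D4:**
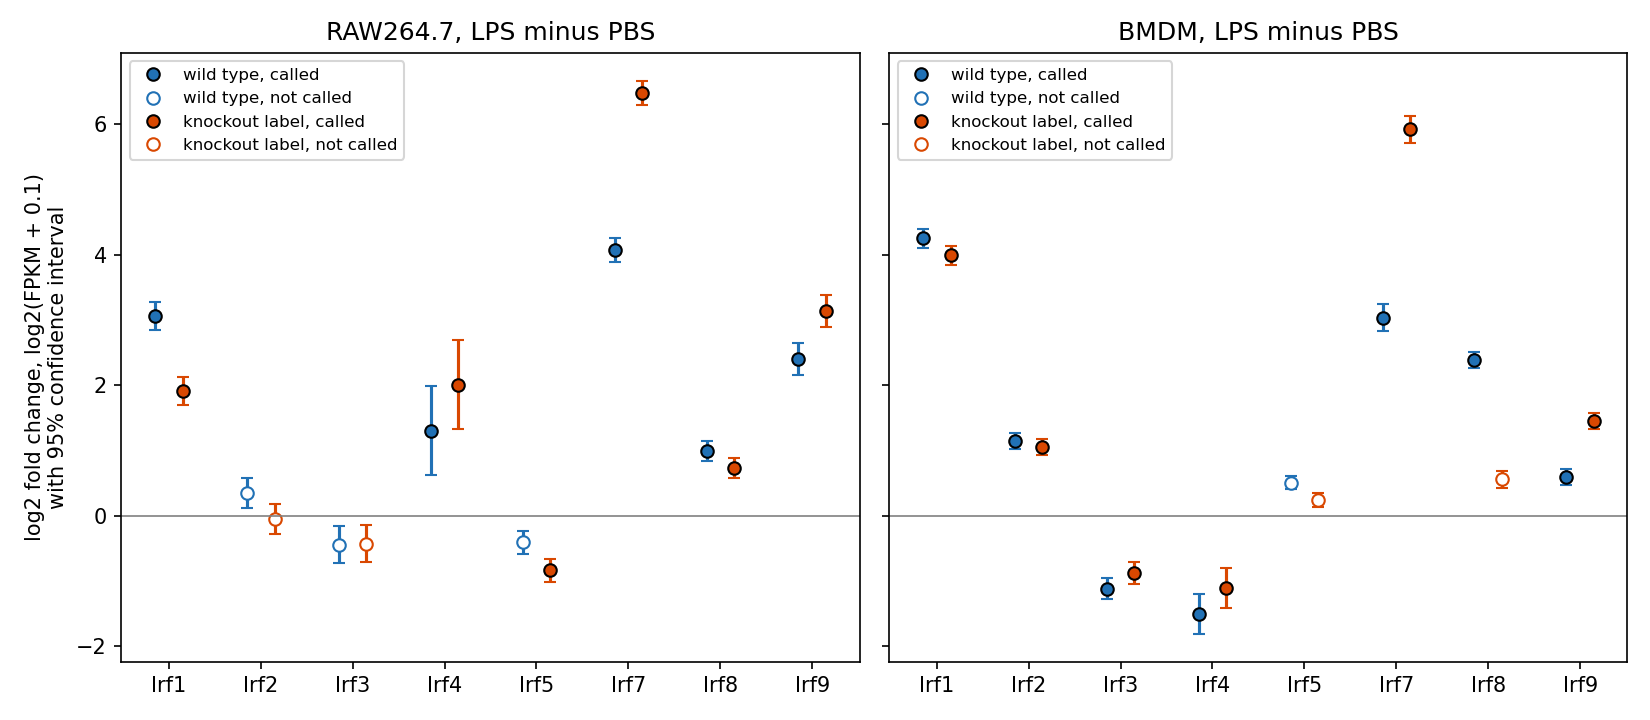
Log2 fold change of each Irf gene, LPS minus PBS, on the log2(FPKM + 0.1) scale with 95% confidence intervals from limma, in wild type and under the Olfml3 knockout label of RAW264.7 and BMDMs; filled points were called. The genotypes are far apart for Irf7 (4.07 and 6.49 in RAW264.7, 3.03 and 5.93 in BMDMs), for Irf8 in BMDMs (2.38 and 0.55) and for Irf1 in RAW264.7 (3.07 and 1.91).

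The genes upstream of the family were then described. Among 27 sensors and kinases upstream of IRF3, IRF5 and IRF7, 5 (18.5%) were called lower and 0 higher in resting BMDM knockout cells, beside 0.916% of all genes called lower. Zbp1, a nucleic acid sensor, fell from 7.81 to 0.80 FPKM, Dhx58 from 20.9 to 6.0 FPKM and Ddx58 (RIG-I) from 14.0 to 4.72 FPKM. These 3 genes are themselves interferon-induced and also stand in the ISGF3 list. With LPS 4 were lower and 1 higher in BMDM knockout (18.5% called, beside 4.76% of all genes). Among the lower was Sting1, the adaptor of DNA sensing, at 16.9 FPKM in wild type and 5.59 FPKM in knockout (log2 difference -1.58 ± 0.06, adjusted p = 1.67e-06, limma). In RAW264.7, 2 were higher and 4 lower with PBS (22.2% called, beside 8.55% of all genes), but 7 higher and 4 lower without the library that stood apart, and 4 were higher and 2 lower with LPS (22.2%, beside 17.3%). Tlr9 was higher under the knockout label, 4.47 against 1.27 FPKM with PBS and 6.29 against 2.32 FPKM with LPS. Ikbke, a kinase of IRF3 and IRF7, rose with LPS by 5.16 in RAW264.7 wild type and 6.57 under the knockout label, a difference in response of 1.41 ± 0.10 (adjusted p = 0.000146, limma).

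Of the interferon genes, 1 of 21 listed was detected in RAW264.7 and 7 in BMDMs. Ifnb1, the interferon beta gene that IRF3 and IRF7 activate, was listed at 0 in every RAW264.7 library with PBS. With LPS it was 18.6 FPKM in RAW264.7 wild type and 22.3 FPKM under the knockout label, a difference of 0.26 ± 0.07 that did not reach 1.5-fold. In BMDMs with LPS Ifnb1 was lower in knockout, 2.53 against 6.21 FPKM (log2 difference -1.25 ± 0.25, adjusted p = 0.00652, limma). Its response to LPS did not pass the test for a difference between BMDM genotypes (-0.65 ± 0.35, adjusted p = 0.382, limma).

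Among 18 interferon receptor and JAK-STAT genes, Stat2, a partner of IRF9, was lower in resting BMDM knockout cells. It was 21.6 FPKM in wild type and 8.72 FPKM in knockout, a difference of -1.30 ± 0.06 (adjusted p = 1.51e-06, limma). With LPS Stat2 was 75.5 and 88.3 FPKM, slightly higher in knockout and under 1.5-fold. In RAW264.7 with PBS it was 3.51 and 3.44 FPKM and was not called. Counts for the list were 1 higher and 3 lower with PBS and 0 higher and 1 lower with LPS in BMDMs, and 1 higher and 2 lower in RAW264.7 in either condition, with 2 higher at PBS without the library that stood apart. With LPS the called share, 5.56% in BMDMs and 16.7% in RAW264.7, was near the 4.76% and 17.3% of all genes, and with PBS it was 22.2% and 16.7% beside 1.82% and 8.55%. Usp18, which dampens the interferon receptor and also stands in the ISGF3 list, was lower under the knockout label with PBS in both, at 8.0 against 1.24 FPKM in BMDMs and 2.52 against 0.20 FPKM in RAW264.7. Socs1, another feedback inhibitor, was lower with LPS in both, at 32.4 against 15.6 FPKM and 3.40 against 2.03 FPKM.

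Among the lists described, the genes known as ISGF3 targets had the highest share of called members in resting cells. In resting BMDMs all 37 genes tested were called lower in knockout, where 0.916% of all genes were, and their median log2 difference was -2.04 beside 0.01 over all genes. Oasl2 fell from 26.1 to 2.19 FPKM, Oas3 from 19.99 to 1.70 FPKM and Rtp4 from 46.0 to 4.17 FPKM. In resting RAW264.7, 22 of 37 were called lower and 1 higher under the knockout label, beside 3.77% of all genes called lower, with a median of -1.05 beside 0.02. The largest changes there were in Rtp4 (3.28 to 0.21 FPKM), Usp18, and Ifi27l2a (143 to 18.0 FPKM). Without the library that stood apart, 22 were lower and 3 higher, with a median of -1.14.

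With LPS most of the list was called higher in every group. In BMDMs 35 of 37 rose in wild type (7.94% of all genes called higher) and 36 in knockout (8.02%), with medians of 2.93 and 4.66, and in RAW264.7 35 rose in wild type (5.80%) and 35 under the knockout label (7.45%), with medians of 4.88 and 5.55. After LPS 12 of 37 were called lower in BMDM knockout, beside 1.53% of all genes, with a median of -0.36, and 17 of 37 in RAW264.7 labelled knockout, beside 7.60% of all genes, with a median of -0.55 and 2 called higher. Ifi27l2a was among the largest in both, at 46.1 against 11.4 FPKM in BMDMs and 138 against 15.0 FPKM in RAW264.7. The LPS response was larger in knockout for 36 of 37 in BMDMs, beside 1.91% of all genes, and for 12 of 37 in RAW264.7, beside 0.905%, where 3 were smaller. Isg15, a ubiquitin-like interferon product, went from 26.4 to 758 FPKM in BMDM wild type and from 4.06 to 678 FPKM in knockout.

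**Figure D5:**
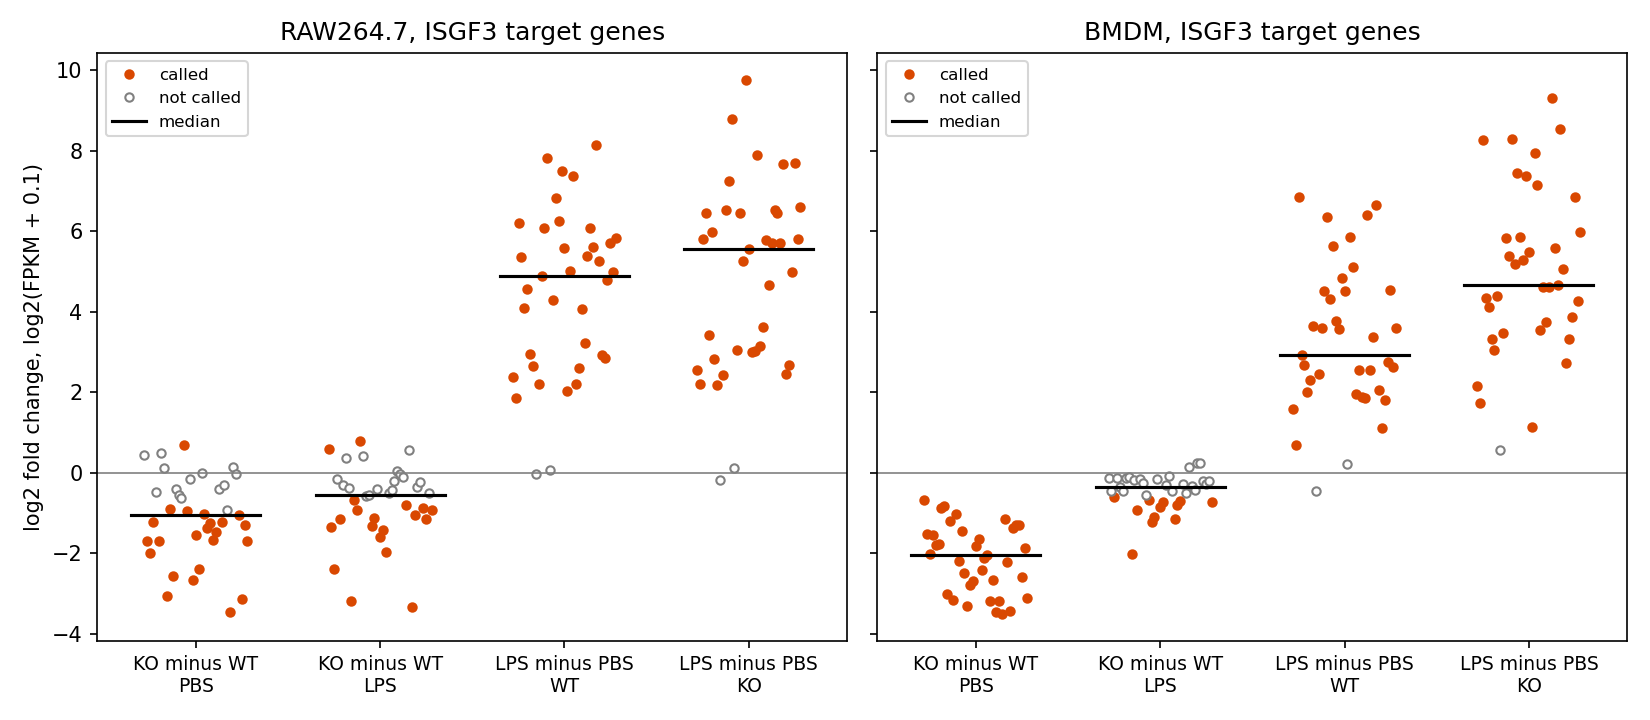
Log2 fold change of 37 ISGF3 target genes, on the log2(FPKM + 0.1) scale, in 4 comparisons of RAW264.7 and BMDMs; each point is a gene, filled where called, and black bars are medians. All 37 lie below 0 in resting BMDMs (median -2.04), and with LPS the median difference between genotypes is -0.36 in BMDMs and -0.55 in RAW264.7.

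Of 31 IRF1 and interferon gamma target genes, 6 (19.4%) were called lower and 0 higher in BMDM knockout with LPS, beside 1.53% of all genes called lower, with a median of -0.28. The largest were Cxcl9, a chemokine that attracts T cells, at 250 against 19.8 FPKM, Iigp1 at 220 against 46.7 FPKM and Gbp4 at 41.9 against 13.4 FPKM. Nos2, the inducible nitric oxide synthase, was 202 and 216 FPKM, and Il12b, which IRF8 and IRF1 are known to activate, was 272 and 368 FPKM. Neither of these was called. In RAW264.7 with LPS 16 of 31 were called lower and 1 higher, beside 7.60% and 9.73% of all genes, with a median of -0.59. There Nos2 was 23.3 against 4.63 FPKM, Gbp2 12.8 against 2.85 FPKM and Cxcl10 283 against 79.5 FPKM, and Cxcl9 was at or under 0.03 FPKM on average in every group. With PBS 13 of 31 were lower in BMDM knockout and 8 of 31 in RAW264.7 labelled knockout (0.916% and 3.77% of all genes), the latter 11 without the library that stood apart. The response to LPS differed for Cxcl9 in BMDMs by -3.18 ± 0.39 (adjusted p = 0.00165, limma) and for Nos2 in RAW264.7 by -2.41 ± 0.26 (adjusted p = 0.00157).

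Of the 27 sensors and kinases 12 rose and 9 fell in BMDM wild type and 13 rose and 8 fell in knockout, the falls being near the 32.5% and 30.9% of all genes called lower and 3 and 2 after median-ratio scaling. The rises stood beside 7.94% and 8.02% of all genes. In RAW264.7 12 rose and 5 fell in wild type and 10 rose and 6 fell under the knockout label, beside 5.80% and 7.45% of all genes rising and 12.5% and 14.6% falling. Of the 18 receptor and JAK-STAT genes 10 rose and 2 fell in BMDM wild type and 12 rose and 1 fell in knockout, and 8 rose and 3 fell in each RAW264.7 genotype.

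Partners and genes linked to IRF4 were compared between genotypes. Of 18 partners and regulators, 0 were called between BMDM genotypes with PBS, beside 1.82% of all genes. With LPS 1 was higher and 3 lower (22.2%, beside 4.76% of all genes), among them Batf2 (34.7 to 19.9 FPKM), Batf3 and Bcl6. In RAW264.7 1 was higher and 1 lower with PBS (11.1%, near the 8.55% of all genes), 3 and 1 without the library that stood apart. With LPS 4 were higher and 5 lower in RAW264.7 (50% of the list, beside 17.3% of all genes). Among them were Batf, a partner of IRF4 and IRF8, at 1.79 FPKM in wild type and 0.32 FPKM under the knockout label, and Prdm1 at 0.0067 and 1.14 FPKM. Irf2bp2, a corepressor of IRF2, fell with LPS in BMDMs from 17.8 to 0.45 FPKM in wild type and from 19.0 to 0.57 FPKM in knockout. Of 12 genes of the IRF4 and alternative activation list, 3 were called higher and 0 lower in BMDM knockout with LPS. Of all genes 3.23% were called higher and 1.53% lower there. The 3 were Ccl17 (2.30 to 9.95 FPKM), Ccl22 (43.1 to 103 FPKM) and Ccl24 (4.04 to 6.73 FPKM), all chemokines. In RAW264.7 with LPS 2 of 11 were higher, Kdm6b (13.3 to 28.7 FPKM) and Il4ra (0.37 to 0.93 FPKM), and 1 lower, Ccl17 (27.5 to 6.6 FPKM), with a median of 0.52. The called share was 27.3%, beside 17.3% of all genes. With PBS 1 of 11 was higher in RAW264.7, and 2 without the library that stood apart. The 9.09% called in the main test was near the 8.55% of all genes. In BMDMs with PBS 0 of 12 were called, beside 1.82% of all genes.

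The genes with the profile closest to each member were found by the root mean square difference of centred log2(FPKM + 0.1) over the 12 libraries of a cell type, as a description. For Irf7 these were Zbp1 (0.21), Oasl2 (0.22) and Ifi44 (0.22) in BMDMs and Ifi44 (0.37), Il1rn (0.52) and Dhx58 (0.57) in RAW264.7, so that Ifi44 came in both. For Irf8 in BMDMs they were Rubcnl (0.24), I830077J02Rik (0.24) and Mid1 (0.30). For Irf1 they were Enpp4 (0.10), Ripk2 (0.14) and Gbp7 (0.16) in BMDMs and Daxx (0.17), Zfp36 (0.18) and Gm6548 (0.21) in RAW264.7. For Irf9 they were Ifi207 (0.12), Tent5a (0.12) and Psme1 (0.15) in BMDMs and, in RAW264.7, Cd44 (0.14), a gene without a symbol (0.15) and Gm14636 (0.18). The nearest gene to Irf4 was Tanc2 (0.27) in RAW264.7 and Zxdc (0.11) in BMDMs, that to Irf2 in BMDMs Lyn (0.047) and that to Irf3 in BMDMs Hsdl1 (0.043). Members whose group means spanned less than 1 on the log2 scale were not matched, and libraries of a group share their condition, so these distances carry no test.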

How the data were processed

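RNA-seq of poly(A) RNA was made from 12 RAW264.7 and 12 BMDM libraries. The authors deposited a table per cell type with raw read counts per gene and FPKM values, which scale the fragments of a gene by its length and by the library total. A count divided by gene length and library total gave the deposited FPKM within 1% for 99.88% of RAW264.7 and 99.51% of BMDM values over 50 counts. The submitters' processing notes name mm10, but the coordinates in the tables did not match that build, so gene symbols were used; 2639 genes carry no symbol. No aligner, counting program or strand setting was found in the text read for this work.

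Groups followed sample titles. limma 3.58.1 in R 4.3.3, the test the study's methods name, was fitted per cell type to log2(FPKM + 0.1) with 4 group means over 12 libraries, for the 26740 RAW264.7 and 26973 BMDM genes above 0 FPKM in a library. Fold changes are on the log2(FPKM + 0.1) scale, which understates those of low genes. Genes were called at a Benjamini-Hochberg adjusted p under 0.05 and at least 1.5-fold. Comparisons of one cell type share libraries (both LPS contrasts and both genotype contrasts use the same groups), and the tables were normalized separately, so no test was made across cell types. The study calls the replicates biological without saying which were separate cultures or animals, so p-values measure the spread between these libraries, which may be technical. Ratios within libraries were taken on FPKM + 0.1 and compared by exact permutation. The tests were also run on simulated counts that held a knockout effect and no LPS effect. Those runs could not check the recovery of LPS changes or of differences in response.

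The members, gene lists and tests were chosen with earlier results of these data known. Named were the 8 members, Olfml3 and the LPS check genes, from each list the 3 called genes with the largest change and a mean of at least 1 FPKM in either group, and the 3 closest profiles of members spanning at least 1 on the log2 scale. Values outside that rule were added after they were seen: Stat2 with LPS and in RAW264.7, Il4ra with LPS, Isg15, Nos2 and Il12b in BMDMs, Cxcl9 in RAW264.7, Ikbke in RAW264.7 wild type, and Ifnb1 where it was not called. Alternatives were pseudocounts of 0.01 and 1, at least 1 FPKM in 3 libraries, TPM, median-ratio scaling, edgeR 4.0.16, DESeq2 1.42.0, a replicate block, the adjusted p alone, and leaving out each library; list counts without RAW264.7 knockout-labelled PBS replicate 1 were chosen after seeing the data. Promoters came from RefSeq on GRCm38.p6, where all 8 members matched; proteins were not analysed here. Some genes are not reported here.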

Additional observations from a re-analysis of the deposited data

Results flagged for a closer look

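The response of 3 members in each cell type to LPS differed between genotypes by the limma interaction test. In RAW264.7 the difference, knockout label minus wild type on the log2 scale, was -1.15 for Irf1 (adjusted p = 0.00214), 2.41 for Irf7 (1.24e-05) and 0.73 for Irf9 (0.0485). The RAW264.7 call of Irf9 was lost with either other pseudocount, after TPM scaling, with a replicate block and with most single libraries left out. In BMDMs it was 2.90 for Irf7 (5.91e-06), -1.83 for Irf8 (4.37e-06) and 0.86 for Irf9 (0.000261).

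For 3 members the groups compared did not overlap by library in either cell type and differed in opposite directions. The difference between cell types was not tested. Irf5 differed between genotypes with PBS by 0.26 in RAW264.7 and -0.20 in BMDMs (adjusted p = 0.0533 and 0.0414, limma). Irf3 differed with LPS by -0.16 and 0.33 (adjusted p = 0.421 and 0.0123, limma), and its RAW264.7 value was 0.074 after TPM scaling. All of these genotype differences were under the fold threshold. LPS changed Irf4 by 1.30 in RAW264.7 and -1.51 in BMDMs in wild type, and by 2.00 and -1.11 under the knockout label. LPS changed Irf5 by -0.41 in RAW264.7 and 0.50 in BMDMs in wild type, and by -0.84 and 0.24 under the knockout label.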

How the results depend on the processing

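Of 640 member results under settings other than leaving out a library, 588 kept direction and side of the threshold, 21 lost a call, 18 gained one and 13 uncalled values changed sign. The number of members called moved by over 1.5 times as follows. Between genotypes with LPS it was 1 in RAW264.7 after TPM scaling, where 3 were called in the main test, and in BMDMs, where 1 was called, it was 2 with a pseudocount of 0.01, 3 after median-ratio scaling, 3 by edgeR, 3 by DESeq2 and 6 by adjusted p alone. By adjusted p alone it was also 4 between BMDM genotypes with PBS and 8 for LPS in RAW264.7 wild type. Leaving out 1 library gave, in RAW264.7, 3 to 3 called between genotypes with PBS, 3 to 3 with LPS, 5 to 5 for LPS in wild type, 6 to 6 under the knockout label and 2 to 3 for the difference in response, and in BMDMs 2 to 2, 1 to 2, 6 to 7, 6 to 7 and 3 to 3.

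Sign changes fell on small values. After TPM scaling, RAW264.7 genotype differences were 0.015 for Irf3 with PBS and 0.074 for Irf3, 0.065 for Irf5 and 0.0028 for Irf8 with LPS. By median-ratio scaling, edgeR and DESeq2 they were -0.028, -0.021 and -0.027 for Irf8 with PBS and -0.0040, -0.012 and -0.0039 for Irf9 with LPS, and the LPS change of Irf2 under the knockout label was 0.21, 0.18 and 0.21. Over single libraries left out, RAW264.7 values ranged from -0.0051 to 0.048 for Irf8 with PBS, from -0.020 to 0.050 for Irf9 with LPS, from -0.15 to 0.0014 for Irf2 with LPS under the knockout label and from -0.10 to 0.17 for the response of Irf3, and BMDM Irf2 with PBS from -0.033 to 0.041. The causes were not tested.

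Same-numbered replicates did not deviate together (correlations -0.058 to 0.084). With the replicate number as a block 1 call was lost, the Irf9 response in RAW264.7 (0.73, adjusted p = 0.0884 by limma), and no other call changed. Irf4 rests on 9 to 36 counts in some libraries, the lowest depth of any member.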
